A study of Mus musculus with 2 samples.

Results

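A set of genes that mark alveolar type 1 (AT1) cells was followed in lung cells sorted as alveolar type 2 (AT2) cells. These were Ager, Hopx, Pdpn, Aqp5, Rtkn2, Cav1, Clic5, Akap5, Emp2 and Igfbp2, found by symbol, 10 of the 27998 genes in the count matrices. AT1 cells are the thin, flat cells through which gas crosses the alveolar wall. AT2 cells are cuboidal cells that make surfactant and can give rise to AT1 cells, by way of a keratin-rich transitional state. In the mouse lung most of these genes are used as AT1 markers, although several are also known from other cells, above all endothelium.

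The study compared IP-/- (IPKO) with WT male mice, with 1 single-cell library for each genotype. IP is the prostacyclin receptor, encoded by Ptgir. Lung cells were sorted as EpCAM+CD31-CD34-CD45-CD24-Sca-1-, which selects epithelial cells and depletes endothelial and blood cells, and 3' ends of transcripts were counted with unique molecular identifiers (UMIs). The labels used here give no age, strain, treatment or number of pooled animals, and no deleted part of Ptgir. Since there was 1 library per genotype, no test between genotypes was possible, and every interval below is a 95% interval that covers counting error only.

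The library labelled IPKO held 10014 barcodes and 137471506 UMIs, and the library labelled WT held 8924 barcodes and 127287281 UMIs. Ptgir itself went against the labels, with 291 UMIs in 278 of the 7074 AT2 cells labelled IPKO. It had 0 UMIs in the 6112 AT2 cells labelled WT, which allows up to 0.0317 CPM (UMIs scaled to a sum of 1000000). A 3' tag outside the deleted part does not check a knockout, and the deleted part is not known here. That point bears on the UMIs labelled IPKO and not on the 0 UMIs labelled WT. Whether the labels were exchanged was not tested. The libraries are therefore named below by their labels only, and every direction between them rests on those labels. AT2 cells were those in which Sftpc, the surfactant protein C gene, made up at least 10% of UMIs, and that were neither keratin-high nor carried 4 or more markers of another cell type. Their median depth was 17074 UMIs in the library labelled IPKO and 18355 UMIs in the library labelled WT. Keratin-high cells were the 390 cells labelled IPKO and 329 cells labelled WT at or above the 95th percentile of the summed share of Krt7, Krt8, Krt18 and Krt19. This is a range and not a type, since 193 cells labelled IPKO and 140 labelled WT lay within 10% of that limit. Leading genes that the rule had not used included S100a6, Lgals3, Areg and Sfn, 4 markers of the transitional state. Cldn4, another such marker, was at 1.75 CPM in keratin-high cells against 0.0804 CPM in AT2 cells labelled IPKO. It was at 2.64 CPM in keratin-high cells against 0.112 CPM in AT2 cells labelled WT. Non-epithelial cells, which the sort selected against, were few, with 254 labelled IPKO and 117 labelled WT. Those labelled IPKO comprised 60 endothelial-like, 107 lymphoid-like, 70 myeloid-like and 17 mesenchymal-like cells. Those labelled WT comprised 63 endothelial-like, 17 lymphoid-like, 20 myeloid-like and 17 mesenchymal-like cells.

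The 250 bases before the start sites of 4 genes, from the RefSeq table of GRCm38.p6, are shown because these genes differed in which other cells held them. Promoter entries were found for 9 of the 10 genes, all but Rtkn2. Ager was high in AT2 cells and low in lymphoid-like and endothelial-like cells, while Hopx, Emp2 and Cav1 were higher in endothelial-like cells than in AT2 cells. The windows lie at chr17:34597600-34597849 on the plus strand for Ager, chr5:77115124-77115373 on the minus strand for Hopx, chr16:10313969-10314218 on the minus strand for Emp2 and chr6:17306085-17306334 on the plus strand for Cav1. Each is written 5′ to 3′ along the gene, and capitals mark a searched motif.
Ager: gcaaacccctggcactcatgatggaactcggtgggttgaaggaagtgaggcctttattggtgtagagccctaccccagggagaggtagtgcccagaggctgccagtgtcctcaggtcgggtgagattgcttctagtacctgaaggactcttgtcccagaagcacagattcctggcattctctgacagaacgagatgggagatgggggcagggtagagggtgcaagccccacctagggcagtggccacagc
Hopx: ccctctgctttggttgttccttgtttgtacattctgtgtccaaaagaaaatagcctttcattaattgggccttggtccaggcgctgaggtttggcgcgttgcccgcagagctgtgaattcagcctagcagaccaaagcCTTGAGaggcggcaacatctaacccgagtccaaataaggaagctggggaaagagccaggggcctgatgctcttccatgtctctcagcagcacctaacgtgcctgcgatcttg
Emp2: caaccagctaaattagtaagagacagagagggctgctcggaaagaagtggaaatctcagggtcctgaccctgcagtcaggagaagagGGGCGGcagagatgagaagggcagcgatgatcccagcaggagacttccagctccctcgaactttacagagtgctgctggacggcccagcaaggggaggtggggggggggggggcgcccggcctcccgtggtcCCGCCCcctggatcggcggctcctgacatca
Cav1: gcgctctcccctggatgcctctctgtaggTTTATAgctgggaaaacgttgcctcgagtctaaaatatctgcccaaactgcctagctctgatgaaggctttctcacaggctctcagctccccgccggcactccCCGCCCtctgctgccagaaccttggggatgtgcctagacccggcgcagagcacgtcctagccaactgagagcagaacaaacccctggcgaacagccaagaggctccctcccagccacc
Motifs were searched on both strands, and their background is the share of 27025 RefSeq promoter windows of the same length. The TEAD motif GGAATG stood in 12.6% of all windows and the AP-1 motif TGANTCA in 6.87%. The motif CTTGAG of NKX2-1, a lung transcription factor, stood in 13.6%. The GC box GGGCGG stood in 32.9%, and the TATA box TATAAA in 13.0%. The Ager window held none of these letters, the Hopx window held 1 CTTGAG, the Emp2 window held 2 GC boxes, and the Cav1 window held 1 GC box and 1 TATA box, both on the opposite strand. Hopx and Cav1 each had a second promoter entry, at chr5:77095268-77095517 and chr6:17307390-17307639, not shown here, whose window held none of the motifs. These matches describe letters in a window and not binding.

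In the GENCODE vM21 annotation of GRCm38, Ager lies on chromosome 17 at positions 34597862 to 34600936, plus strand, and Clic5 on the same chromosome at 44188584 to 44280172, plus strand. Hopx lies on chromosome 5 at 77086988 to 77115121 and Pdpn on chromosome 4 at 143267431 to 143299564, both on the minus strand, as is Emp2 on chromosome 16 at 10281749 to 10313968. On the plus strand lie Aqp5 on chromosome 15 at 99590782 to 99594829, Rtkn2 on chromosome 10 at 67979570 to 68059740 and Cav1 on chromosome 6 at 17306335 to 17341452. Also on the plus strand are Akap5 on chromosome 12 at 76324891 to 76334153 and Igfbp2 on chromosome 1 at 72824503 to 72852474. Genes on the opposite strand overlap Hopx, Rtkn2 and Cav1, and each had at most 6 UMIs over the AT2 cells of a library.

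Ager, Aqp5 and Emp2, 3 of the 10 genes, were found in most AT2 cells of both libraries. Ager encodes the receptor for advanced glycation end products, a membrane protein of the AT1 basal surface. Its level was 1092 CPM (1086 to 1098) in AT2 cells labelled IPKO and 1059 CPM (1053 to 1064) in AT2 cells labelled WT. An Ager UMI was seen in 7065 of the 7074 cells labelled IPKO and 6104 of the 6112 cells labelled WT, 99.9% in each library. After each cell was thinned to 3000 UMIs, which left out 18 shallower AT2 cells in each library, the share was 93.5% in cells labelled IPKO and 92.2% in cells labelled WT. If every cell had the same level, counting alone would give 96.5% in the library labelled IPKO and 96.2% in the library labelled WT, so more AT2 cells lacked Ager than one common level would give. Just inside the Sftpc limit, at 10 to 12% of UMIs, Ager stood at 960 CPM in cells labelled IPKO and 928 CPM in cells labelled WT. Just outside it, at 8 to 10%, Ager stood at 944 CPM in cells labelled IPKO and 901 CPM in cells labelled WT.

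Aqp5, a water channel of the apical membrane, was at 388 CPM in AT2 cells labelled IPKO and 369 CPM in AT2 cells labelled WT. After thinning it was found in 63.9% of AT2 cells labelled IPKO and 63.0% of those labelled WT. Emp2, a tetraspan protein of the plasma membrane, was at 284 CPM in AT2 cells labelled IPKO and 274 CPM in those labelled WT. It was found in 56.1% of thinned AT2 cells labelled IPKO and 54.5% of those labelled WT. Detection in at least 50% of thinned cells of both libraries was met by these 3 of the 10 genes, beside 3.63% of the 8490 genes that averaged 5 CPM or more in AT2 cells. At 2000 UMIs per cell Emp2 no longer met it. The shares of genes given below are over the same 8490 genes, while 6 of the 10 AT1 genes averaged 5 CPM or more.

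The other 7 genes were low in AT2 cells. Clic5, a chloride intracellular channel protein linked to the actin cortex, was at 37.4 CPM in AT2 cells labelled IPKO and 34.6 CPM in those labelled WT. Hopx, a homeodomain protein that binds no DNA itself and a known AT1 marker, was found in 7.10% of thinned AT2 cells labelled IPKO and 3.86% of those labelled WT. Akap5, a scaffold that anchors protein kinase A near the membrane, was found in 2.65% and 1.15% of thinned AT2 cells labelled IPKO and WT. The remaining 4 genes averaged below 5 CPM over the libraries. Rtkn2 was at 1.97 CPM in AT2 cells labelled IPKO and 2.13 CPM in those labelled WT. Cav1, the coat protein of caveolae, had 184 UMIs over all AT2 cells labelled IPKO and 99 UMIs over those labelled WT. Pdpn, the mucin-like glycoprotein podoplanin of the AT1 apical surface, had 166 UMIs over those labelled IPKO and 65 UMIs over those labelled WT. Igfbp2, a binding protein of insulin-like growth factors that marks mature AT1 cells in mice, had 70 UMIs over those labelled IPKO and 17 UMIs over those labelled WT. These 4 genes were thus close to absent, at under 3 CPM in AT2 cells of each library. A 3' tag counts 1 end per transcript, so these levels are not scaled by length.

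**Figure D1:**
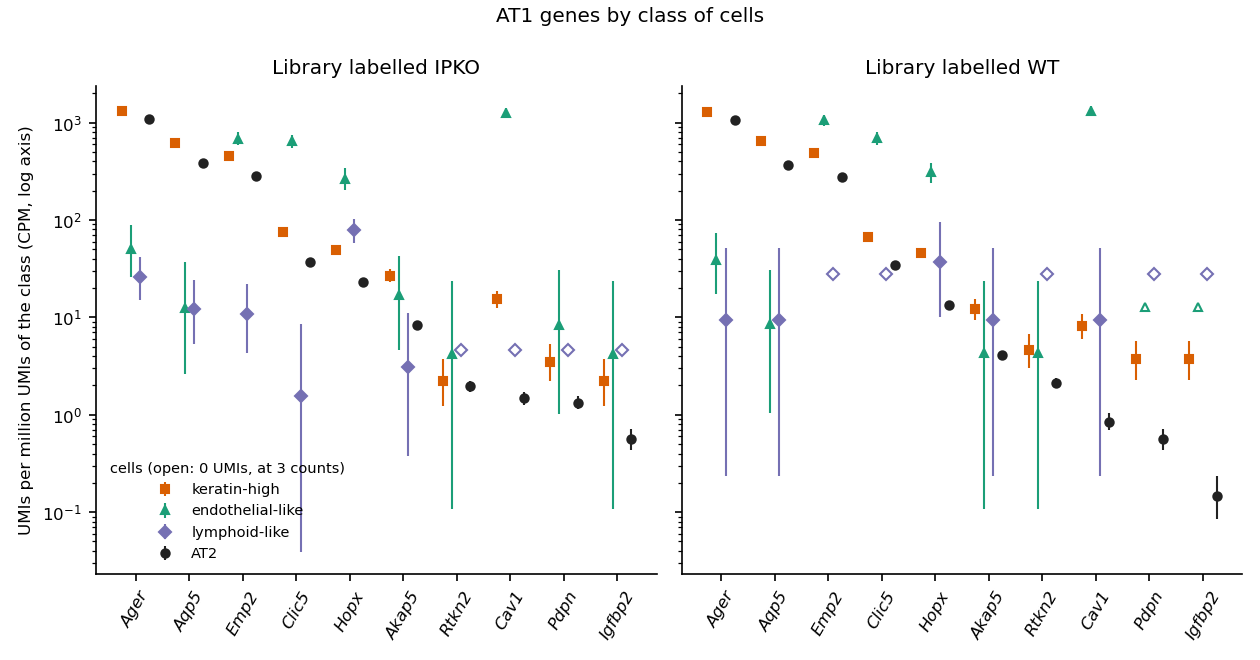
Levels of the 10 genes (CPM, log axis) in keratin-high, endothelial-like, lymphoid-like and AT2 cells of each library, with exact 95% Poisson intervals; open symbols stand at 3 counts where 0 UMIs were seen. Ager and Aqp5 are high in keratin-high and AT2 cells and low in both kinds of non-epithelial cell, while Cav1 is at 1257 and 1321 CPM in endothelial-like cells, labelled IPKO and WT.

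RNA carried between droplets was gauged in the blood and endothelial cells, where surfactant genes should be absent. In lymphoid-like cells Sftpc stood at 2.05% (1.97 to 2.13) of its AT2 level in the library labelled IPKO and at 1.51% (1.35 to 1.68) in the library labelled WT. Ager in the same cells stood at 2.40% (1.40 to 3.84) of its AT2 level in the library labelled IPKO, on 17 UMIs, and at 0.884% (0.0224 to 4.92) in the library labelled WT, on 1 UMI. In the library labelled IPKO the interval of Ager included the value of Sftpc, and a level like that of Sftpc is read as background in these cells. With 1 UMI, Ager could not be placed against Sftpc in the library labelled WT. A UMI of Ager was present in 13.1% of lymphoid-like cells (median depth 5237 UMIs) and 99.9% of AT2 cells labelled IPKO, and in 5.88% of lymphoid-like cells (median depth 5732 UMIs) and 99.9% of AT2 cells labelled WT. At the same thinned depth the shares were 8.74% against 93.5% in the library labelled IPKO, where 103 lymphoid-like cells reached 3000 UMIs. In the library labelled WT 16 lymphoid-like cells reached that depth and 0 held Ager, with an exact upper bound of 20.6%, against 92.2% of AT2 cells. Ager in AT2 cells therefore stood far above the level found in cells that should lack it.

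Aqp5 followed the same pattern. In the library labelled IPKO it stood at 3.17% of its AT2 level in lymphoid-like cells, on 8 UMIs, and 3.25% in endothelial-like cells, on 3 UMIs. In the library labelled WT it stood at 2.53% (0.0642 to 14.1) in lymphoid-like cells, on 1 UMI. In endothelial-like cells labelled WT it stood at 2.32% (0.281 to 8.37), on 2 UMIs. The 10 surfactant and AT2 genes used as a yardstick had medians of 2.91% in lymphoid-like cells labelled IPKO, 1.92% in those labelled WT and 3.91% in the endothelial-like cells of each library. Ager was at 4.62% in endothelial-like cells labelled IPKO and 3.63% in those labelled WT. The point values of Ager and Aqp5 thus lay within the range of these 10 genes in both cell types, except Ager in the lymphoid-like cells labelled WT, where it rested on 1 UMI. That range was wide, up to 12.1% (Napsa) in lymphoid-like cells labelled WT and 11.1% (Lpcat1) in endothelial-like cells labelled IPKO. With so few UMIs, Aqp5 was placed only loosely in the library labelled WT.

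Emp2 was close to that background in lymphoid-like cells labelled IPKO, at 3.79% of its AT2 level. It had 0 UMIs in lymphoid-like cells labelled WT, which allows up to 34.5 CPM. In endothelial-like cells it was above its AT2 level, at 685 CPM in cells labelled IPKO and 1060 CPM in cells labelled WT. These UMIs were concentrated in a minority of the cells: Emp2 was found in 31.7% of endothelial-like cells labelled IPKO, with up to 54 UMIs in a cell, and in 25.4% of those labelled WT, with up to 46. Clic5 was at 643 CPM in endothelial-like cells and 37.4 CPM in AT2 cells labelled IPKO, and at 692 CPM in endothelial-like and 34.6 CPM in AT2 cells labelled WT. Hopx was at 265 CPM in endothelial-like cells labelled IPKO and 308 CPM in those labelled WT. In lymphoid-like cells it was at 78.6 CPM in those labelled IPKO and 37.4 CPM in those labelled WT, above its AT2 level, although the value labelled WT rested on 4 UMIs and its interval included that level. Cav1, a gene well known from endothelium, was at 1257 CPM in endothelial-like cells labelled IPKO and 1321 CPM in those labelled WT. Pdpn was at 98.4 CPM in mesenchymal-like cells labelled IPKO and 73.2 CPM in those labelled WT, which rested on 12 UMIs in the library labelled IPKO and 6 in the library labelled WT. Cav1 was at 246 CPM in mesenchymal-like cells labelled IPKO and 366 CPM in those labelled WT, on 30 UMIs in each library. Emp2 was at 287 CPM in mesenchymal-like cells labelled IPKO, on 35 UMIs, and 354 CPM in those labelled WT, on 29 UMIs. Ager and Aqp5 thus followed surfactant genes in these cells, where their UMIs could place them. Hopx, Emp2, Clic5 and Cav1 in endothelial-like cells and Pdpn, Cav1 and Emp2 in mesenchymal-like cells did not. Rtkn2, Akap5 and Igfbp2 had few UMIs in these cells and were not placed in either group.

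Counted over all non-epithelial cells together, 7 of the 10 genes lay above the carry-over of Sftpc in both libraries, the exceptions being Ager, Aqp5 and Rtkn2. The share over all 8490 genes was 93.0%, so the count says nothing particular about the 10. Ager was above Sftpc in the library labelled IPKO only, at 2.92% (2.18 to 3.85) against 1.95% (1.90 to 1.99), on 51 UMIs. In the library labelled WT it was at 2.68% (1.56 to 4.29) against 1.95% (1.88 to 2.03), on 17 UMIs. The 10 surfactant and AT2 genes had medians of 3.06% labelled IPKO and 3.19% labelled WT in these cells. The call of Igfbp2 rested on 1 UMI in each library. In lymphoid-like cells alone the count was 2, Hopx and Akap5, beside 62.7% of the 8490 genes, and the call of Akap5 rested on 2 UMIs labelled IPKO and 1 labelled WT.

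**Figure D2:**
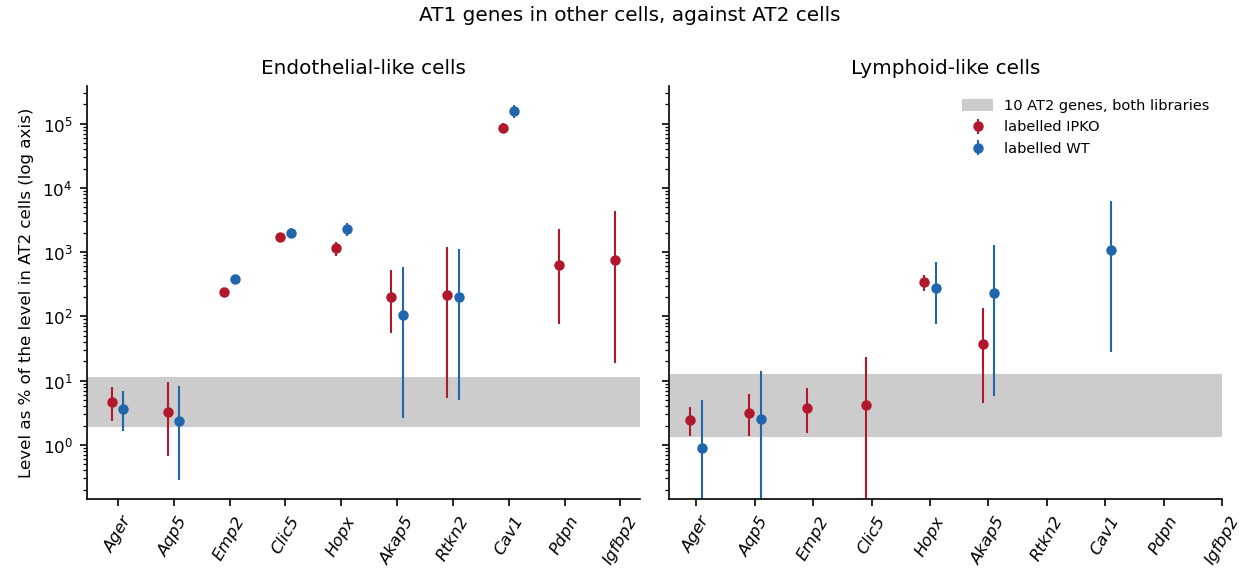
Level of each gene in endothelial-like and lymphoid-like cells as a percentage of its level in AT2 cells of the same library (log axis), with exact 95% intervals; the grey band is the range of 10 surfactant and AT2 genes over both libraries, and genes with 0 UMIs have no point. Ager and Aqp5 lie at 2.32% to 4.62% in endothelial-like cells, while Clic5 lies at 1719% and 2000%, labelled IPKO and WT.

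The opposite direction was examined for Cav1, whose few UMIs in AT2 cells could be set against endothelial genes. Cav1 in AT2 cells was at 0.118% (0.0974 to 0.142) of its endothelial-like level in the library labelled IPKO and 0.0645% (0.0509 to 0.0811) in the library labelled WT. The 12 endothelial markers had a median of 0.00804% in AT2 cells labelled IPKO and 0.00693% in those labelled WT, and 10 of the 12 were below Cav1 in each library, the exceptions, named after their values were seen, being Egfl7 and Tek. In keratin-high cells Cav1 was at 1.23% of its endothelial-like level in the library labelled IPKO and 0.614% in the library labelled WT, and 12 of the 12 markers were below it in each library. Without the 1 keratin-high cell labelled WT that held UMIs of all 7 low genes, the value of Cav1 in that library was 0.467%, and Egfl7, at 0.582% over all keratin-high cells labelled WT, was above it. Cav1 in AT2 and keratin-high cells was thus above most endothelial markers on this scale.

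Levels were next followed over the depth of AT2 cells, divided into quintiles by total UMIs. Ager UMIs per cell averaged 12.8 in the shallowest quintile and 26.3 in the deepest quintile of AT2 cells labelled IPKO, and 15.6 in the shallowest and 25.5 in the deepest labelled WT. As a share of UMIs Ager was at 1180 CPM in the shallowest and 1024 CPM in the deepest quintile labelled IPKO, and at 1259 CPM in the shallowest and 933 CPM in the deepest labelled WT. Deeper cells thus held more Ager molecules, but less than in proportion to their depth. The log2 ratio of the shallowest over the deepest quintile was 0.20 labelled IPKO and 0.43 labelled WT, past 25% in the latter only. For Clic5 it was 0.31 labelled IPKO and 0.45 labelled WT. Aqp5 changed less, at 377 CPM in the shallowest and 388 CPM in the deepest quintile labelled IPKO. In the library labelled WT it was at 390 CPM (380 to 400) in the shallowest and 360 CPM (354 to 367) in the deepest, so it was lower there. Of the 10 genes 0 were at least 25% higher in the shallowest than in the deepest quintile of both libraries, or in the deepest than in the shallowest, beside 2.46% of the 8490 genes.

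**Figure D3:**
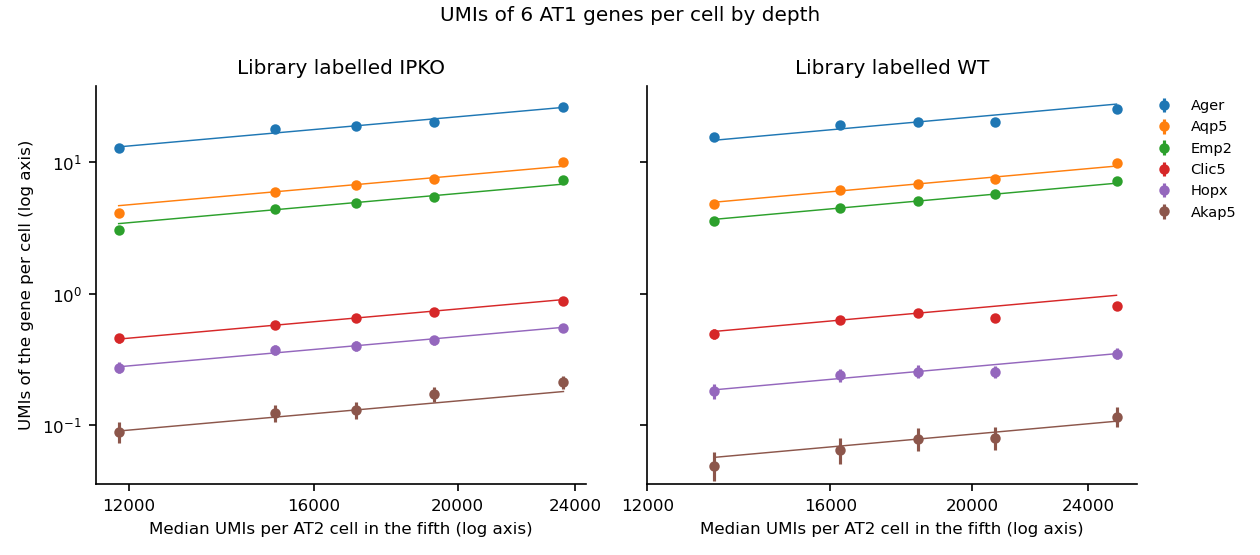
Mean UMIs per AT2 cell of the 6 genes that averaged 5 CPM or more, in quintiles of AT2 cells. The horizontal axis is the median total UMIs of each quintile, both axes are log axes, and bars are exact 95% Poisson intervals. Lines pass through each gene's value in the middle quintile and follow median total UMIs in proportion. The points of Ager lie between 12.8 and 26.3 UMIs per cell and rise with depth in both libraries.

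Barcodes with under 500 genes, which were left out as cells, numbered 1682 labelled IPKO and 1911 labelled WT. Mitochondrial UMIs had a median share of 72.4% in those labelled IPKO and 78.2% in those labelled WT, so levels were scaled to non-mitochondrial UMIs. On that scale Ager was at 696 CPM in these barcodes and 1138 CPM in AT2 cells labelled IPKO, and at 764 CPM in these barcodes and 1120 CPM in AT2 cells labelled WT. Hopx went the other way, at 147 CPM in these barcodes and 24.2 CPM in AT2 cells labelled IPKO, and at 134 CPM in these barcodes and 14.3 CPM in AT2 cells labelled WT. Hopx, Rtkn2, Cav1, Clic5, Akap5 and Igfbp2, 6 of the 10 genes, were at least 1.5-fold higher in these barcodes in both libraries, beside 13.3% of the 8490 genes, and 0 were lower, beside 5.18%. Of the 6 genes that averaged 5 CPM or more, 3 were among them. Rtkn2 rested on 5 UMIs labelled IPKO and 4 labelled WT, and Igfbp2 on 11 labelled IPKO and 1 labelled WT. Which cells these barcodes came from was not tested. Among those with at most 20% mitochondrial UMIs, 217 labelled IPKO and 124 labelled WT, 3 genes were higher (Hopx, Rtkn2 and Cav1), beside 5.88% of the 8490 genes. A further 3 were lower (Ager, Pdpn and Aqp5), beside 23.4%. There Rtkn2 rested on 1 UMI in each library, and Pdpn had 0, which at its AT2 level is not a detectable difference.

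Keratin-high cells held more of most AT1 genes than AT2 cells did. Of the 10 genes 8 were at least 1.5-fold higher in keratin-high cells in both libraries, beside 3.96% of the 8490 genes, and 0 were lower, beside 1.97%. Of the 6 genes that averaged 5 CPM or more, 5 passed. The exceptions were Ager and Rtkn2. With the keratin limit at the 90th percentile 6 genes passed, without Aqp5 and Emp2, beside 2.18% of the 8490 genes. Among keratin-high cells with Sftpc at least 10% of UMIs 7 passed, without Igfbp2, beside 3.39%. The median log2 ratio of the 10 genes was 1.05 in the library labelled IPKO and 1.34 in the library labelled WT, beside 0.08 labelled IPKO and 0.11 labelled WT over all 8490 genes. Keratin-high and AT2 cells of 1 library share that library, and no test was made. The 12 endothelial markers together were at 12.9 CPM in keratin-high and 13.4 CPM in AT2 cells labelled IPKO. In the library labelled WT they were at 11.5 CPM in keratin-high and 11.8 CPM in AT2 cells. Most of these UMIs were of Egfl7, with 65 in keratin-high and 1362 in AT2 cells labelled IPKO. In the library labelled WT Egfl7 had 59 in keratin-high and 1124 in AT2 cells. The sum therefore says little about the other markers.

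Cav1 had a larger ratio than the other 9 genes in the library labelled IPKO. It was at 15.5 CPM in keratin-high cells and 1.48 CPM in AT2 cells labelled IPKO, a log2 ratio of 3.39 (3.02 to 3.75). In the library labelled WT it was at 8.11 CPM in keratin-high cells and 0.852 CPM in AT2 cells, a log2 ratio of 3.25 (2.71 to 3.77). Akap5 was at 26.8 CPM in keratin-high and 8.27 CPM in AT2 cells labelled IPKO, and at 12.2 CPM in keratin-high and 4.09 CPM in AT2 cells labelled WT. Its log2 ratio was 1.69 in the library labelled IPKO and 1.57 in the library labelled WT. Each of these genes had similar ratios in both libraries, with intervals that overlap.

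The abundant membrane genes had smaller ratios. Aqp5 was at 618 CPM in keratin-high and 388 CPM in AT2 cells labelled IPKO, and at 655 CPM in keratin-high and 369 CPM in AT2 cells labelled WT. Emp2 was at 456 CPM in keratin-high and 284 CPM in AT2 cells labelled IPKO, and at 485 CPM in keratin-high and 274 CPM in AT2 cells labelled WT. Ager had the smallest ratio of these, with 1320 CPM in keratin-high and 1092 CPM in AT2 cells labelled IPKO and 1285 CPM in keratin-high and 1059 CPM in AT2 cells labelled WT. Its log2 ratio was 0.27 in the library labelled IPKO and 0.28 in the library labelled WT. Clic5 was at 74.9 CPM in keratin-high and 37.4 CPM in AT2 cells labelled IPKO, and at 66.4 CPM in keratin-high and 34.6 CPM in AT2 cells labelled WT. Hopx was at 49.7 CPM in keratin-high and 23.2 CPM in AT2 cells labelled IPKO, and at 45.8 CPM in keratin-high and 13.5 CPM in AT2 cells labelled WT. Rtkn2 had a log2 ratio of 0.18 in the library labelled IPKO and 1.11 in the library labelled WT.

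Pdpn and Igfbp2 rested on few molecules in keratin-high cells. Pdpn had 22 UMIs in those labelled IPKO and 21 in those labelled WT, and Igfbp2 had 14 in those labelled IPKO and 21 in those labelled WT. In the library labelled WT 11 of the Pdpn and 17 of the Igfbp2 UMIs came from 1 cell. Without the cells that held all 7 low genes, Igfbp2 had 12 UMIs in keratin-high cells labelled IPKO and 4 in those labelled WT, and its log2 ratio in the library labelled WT was 2.27 in place of 4.66. Pdpn had a log2 ratio of 1.66 in place of 2.73 in that library, and Cav1 2.86 in place of 3.25. The same 8 genes passed 1.5-fold without those cells.

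Cells holding many of the 7 low genes (Hopx, Pdpn, Rtkn2, Cav1, Clic5, Akap5 and Igfbp2) were rare. At 3000 UMIs, 69.9% of keratin-high and 80.1% of AT2 cells labelled IPKO held none of the 7 low genes, and 72.8% of keratin-high and 85.2% of AT2 cells labelled WT held none. A UMI of all 7 was found in 3 kept cells labelled IPKO and 1 labelled WT, at full depth. The cell labelled WT had 4287 UMIs, Sftpc at 0.630% of them and 0 endothelial markers. It held 209 UMIs of Ager, 60 of Emp2, 26 of Hopx, 24 of Aqp5, 18 of Clic5, 17 of Igfbp2 and 11 each of Pdpn and Cav1. This single cell had Ager at 48752 CPM and Sftpc low. AT1 cells are known for abundant Ager and little surfactant RNA. A cell labelled IPKO with 2120 UMIs and Sftpc at 0.943% held 14 UMIs of Hopx, 10 of Clic5, 6 of Ager and 0 of Aqp5. Its Ager stood at 2830 CPM, above the 1092 CPM of AT2 cells labelled IPKO. At its depth, 0 UMIs of Aqp5 do not show absence. The other cells labelled IPKO had Sftpc at 22.8% of 12759 UMIs and 17.1% of 23295 UMIs. These cells were chosen after their values were seen.

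**Figure D4:**
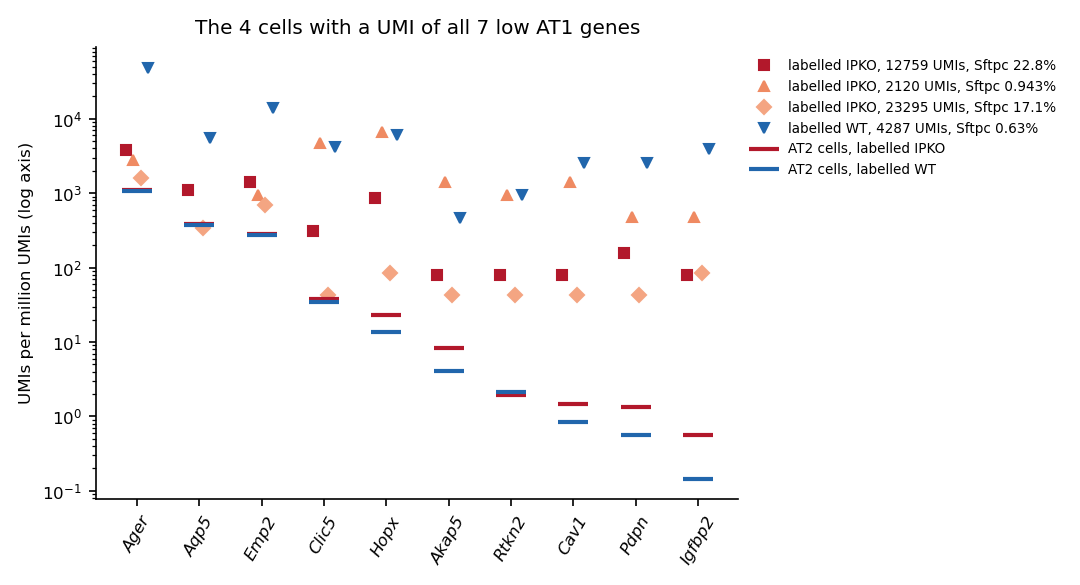
Levels of the 10 genes (CPM, log axis) in the 4 kept cells that hold a UMI of all 7 low genes, with bars for the mean level of AT2 cells in each library; a gene with 0 UMIs has no symbol. The cell labelled WT has Ager at 48752 CPM, while its library's AT2 cells stand at 1059 CPM.

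Between the libraries, the abundant genes were close and several low genes were higher in AT2 cells labelled IPKO. Hopx, Pdpn, Cav1, Akap5 and Igfbp2, 5 of the 10 genes, were at least 25% higher in AT2 cells labelled IPKO, beside 8.72% of the 8490 genes, and 0 were at least 20% lower, beside 4.89%. The median log2 ratio of the 10 was 0.45, beside 0.06 over the 8490 genes. Only 2 of the 5, Hopx and Akap5, belonged to the 6 genes that reached 5 CPM on average, whose median was 0.09. With 1 library per label, a difference between animals, sorts or libraries and one between genotypes cannot be told apart.

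Hopx was at 23.2 CPM in AT2 cells labelled IPKO and 13.5 CPM in AT2 cells labelled WT, a log2 ratio of 0.78 (0.69 to 0.87). Akap5 was at 8.27 CPM in AT2 cells labelled IPKO and 4.09 CPM in AT2 cells labelled WT, a log2 ratio of 1.02 (0.86 to 1.18). Cav1 had a log2 ratio of 0.80 (0.44 to 1.16), which was 0.26 over all kept cells, where its call was lost. Pdpn was at 1.33 CPM in AT2 cells labelled IPKO and 0.559 CPM in AT2 cells labelled WT, with an interval of 0.83 to 1.69 on the log2 ratio. Igfbp2 had a log2 ratio of 1.94 (1.16 to 2.80), on 70 UMIs labelled IPKO and 17 labelled WT. Each of these 5 intervals lies above 0, which covers counting error and not the spread between animals. Ager, Aqp5, Emp2 and Clic5 had log2 ratios of 0.04, 0.07, 0.05 and 0.11, and under median-of-ratios scaling Ager and Emp2 turned to -0.02 and -0.01. Rtkn2 had a log2 ratio of -0.11 (-0.37 to 0.15).

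Early response genes moved with this difference, at 4500 CPM in AT2 cells labelled IPKO and 2522 CPM in those labelled WT for 10 genes summed, and their part in it was not tested. Among AT2 cells below the median early response share, 2425 labelled IPKO and 4168 labelled WT, the log2 ratio was 0.77 for Hopx, 1.20 for Akap5 and 0.90 for Cav1. Among cells at or above it the log2 ratio was 1.07 for Hopx, 0.55 for Akap5 and 0.47 for Cav1, the last with an interval of -0.06 to 1.03. Pdpn had 1.15 (0.53 to 1.77) below and 1.19 (0.52 to 1.91) at or above it. Igfbp2 had 2.04 (0.90 to 3.28) below and 1.58 (0.42 to 2.97) at or above it, both genes on few UMIs. Hopx, Akap5, Pdpn and Igfbp2 were thus higher in AT2 cells labelled IPKO on both sides of that division. Endothelial markers summed to 13.4 CPM in AT2 cells labelled IPKO and 11.8 CPM in those labelled WT, mostly from Egfl7. Without AT2 cells that held such a marker the same 5 genes were called, a check that rests mainly on Egfl7.

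In keratin-high cells the ratio between the libraries differed from gene to gene. Akap5 and Cav1 were higher in keratin-high cells labelled IPKO, with log2 ratios of 1.14 (0.73 to 1.56) and 0.93 (0.41 to 1.47). Hopx had 0.12 (-0.12 to 0.36). Pdpn had -0.08 (-1.01 to 0.86) and Igfbp2 -0.73 (-1.82 to 0.31), but without the cells that held all 7 low genes Pdpn turned to 0.78, Igfbp2 to 1.44 and Cav1 to 1.27. These values were not tested against those in AT2 cells.

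**Figure D5:**
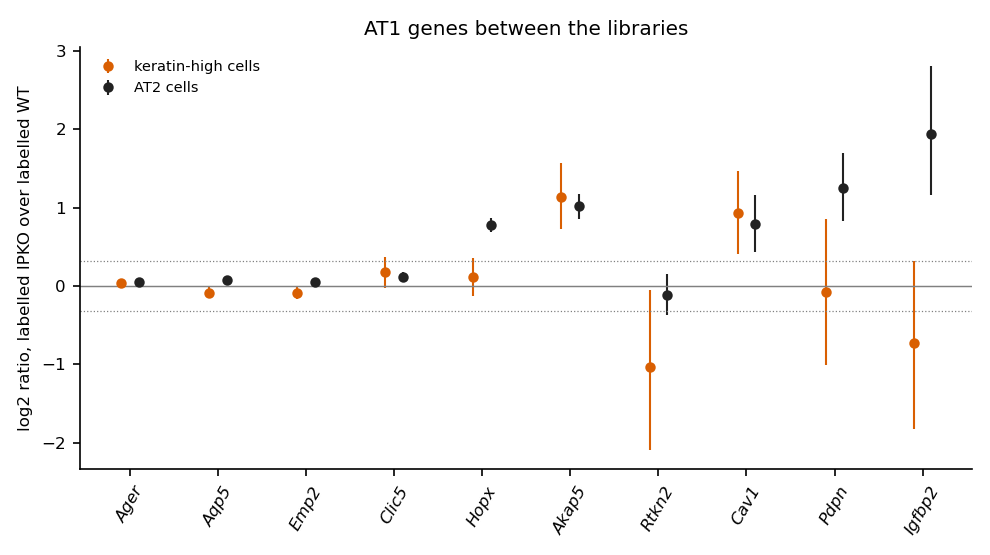
Log2 ratio of the IPKO-labelled over the WT-labelled library for each gene in keratin-high and AT2 cells, with exact 95% counting intervals; dotted lines mark 25% higher and 20% lower. Akap5 and Cav1 lie above 0 in both kinds of cell, while Hopx lies at 0.12 in keratin-high and 0.78 in AT2 cells.

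A list of 20 further AT1 genes was counted beside the 10. Of these 20, 7 were at least 25% higher in AT2 cells labelled IPKO, beside 8.72% of the 8490 genes, and 0 at least 20% lower, beside 4.89%. The median log2 ratio was 0.21, beside 0.06 over the 8490 genes. Of the 17 that averaged 5 CPM or more, 6 were higher. The highest ratios were those of Spock2 (1.27, on 31 UMIs labelled IPKO and 12 labelled WT), a matrix proteoglycan, and Sec14l3 (0.82), a lipid-binding protein, and the lowest were those of Icam1 (-0.29), an adhesion molecule, and Lmo7 (-0.26). Of the 19 left when Krt7, which chose the cells, is set aside, 6 were at least 1.5-fold higher in keratin-high cells in both libraries, beside 3.96% of the 8490 genes, and 0 were lower by that much, beside 1.97%, with a median log2 ratio of 0.44 in the library labelled IPKO and 0.53 in the library labelled WT. Ratios were highest for Spock2, at 2.16 (0.73 to 3.37) labelled IPKO and 4.36 (3.07 to 5.64) labelled WT, on 7 UMIs in keratin-high cells labelled IPKO and 12 in those labelled WT, and for Ndnf, at 2.39 labelled IPKO and 3.07 labelled WT. They were lowest for Limch1, at 0.03 labelled IPKO and -0.25 labelled WT, and Bmp4, at -0.11 labelled IPKO and -0.17 labelled WT.

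Across the levels of 5 kinds of cell in 2 libraries, 10 points that share their libraries, the pattern of Ager was most like that of Sftpb, the surfactant protein B gene, with Pearson r = 0.995 on log2(CPM + 5). Vsig2 and Myo5c followed at 0.993 each, and 238 of 9336 genes reached 0.95. Cav1 was most like Fkbp1a (0.986), Ipo11 (0.983) and Kitl (0.983), and 244 genes reached 0.95 with it. Aqp5 had 0.972 with Ager, and Cav1 had -0.27. With so few points, many genes share either pattern.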

How the data were processed

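Single-cell libraries were made with a 10x Genomics 3' kit, per the labels' protocols. The deposited matrices give UMI counts for each gene in each called barcode; the authors ran Cell Ranger 4.0.0 on GRCm38 (mm10), per the submitters' processing notes and, for the tool, the file headers. No annotation release is named in the sources used here. Empty droplets were not analysed here, so carried-over RNA was gauged only in called cells.

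Cells with at least 500 genes and at most 20% mitochondrial UMIs were kept, 8072 labelled IPKO and 6745 labelled WT, and 16 barcodes were kept in both libraries. Counts were summed per class and library. Non-epithelial cells had Sftpc under 10% of UMIs and at least 4 markers of 1 cell type, at 0.1% of UMIs or more. Sftpc-rich cells with 4 such markers, 41 labelled IPKO and 9 labelled WT, were set aside, and no doublet caller was run. Endothelial-like cells were shallow, at medians of 3171 UMIs labelled IPKO and 3301 labelled WT. Each non-epithelial class had at least 4 of its markers among its 10 leading genes. The rule had chosen the cells by these same markers, so this does not check the class names. Of the markers 2, Trbc1 and Trbc2, matched no gene used here. Ratios have exact conditional binomial intervals, levels exact Poisson and shares Clopper-Pearson intervals. Calculations used numpy 2.4.6, scipy 1.17.1 and pandas 2.3.3, and were tested on simulated counts. Gene positions come from GENCODE vM21. All 10 genes are named, with Ptgir, Sftpc, the highest and lowest 2 of the other AT1 genes, and the 3 most alike. The genes and lists were chosen with earlier results of these data known. The alternatives numbered 25, and 5 more were chosen after seeing the data.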

Additional observations from a re-analysis of the deposited data

Results flagged for a closer look

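Igfbp2 gave ratios of opposite sign in different cells, on few UMIs. Its log2 ratio of the IPKO-labelled over the WT-labelled library was -0.73 (-1.82 to 0.31) in keratin-high cells and 1.94 (1.16 to 2.80) in AT2 cells. The difference was not tested, and 17 of the 21 Igfbp2 UMIs of keratin-high cells labelled WT came from 1 cell. Without the cells that held all 7 low genes the ratio in keratin-high cells was 1.44 (-0.28 to 3.53), the same sign as in AT2 cells. Within AT2 cells its log2 ratio of the shallowest over the deepest quintile was 0.92 in the library labelled IPKO and -1.18 in the library labelled WT, where all AT2 cells together held 17 Igfbp2 UMIs. This difference was not tested either.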

How the results depend on the processing

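No paired analysis was possible because each label had 1 library and the labels give no replicate numbers. Each of the 25 alternative settings and the 5 chosen after seeing the data was run. In keratin-high cells 6 genes passed 1.5-fold in both libraries at the 90th percentile of keratins, 9 at the 98th and 7 with Sftpc at least 10% of UMIs, against 8 as reported. At 2000 UMIs per cell 2 genes, not 3, were in at least 50% of AT2 cells, without Emp2. Between the libraries the 5 higher genes were the same under every alternative but all kept cells, where 4 remained. Counts that moved by over 1.5 times were those against carry-over in lymphoid-like cells alone (2 against 7), the genes lower in the shallowest decile of AT2 cells (1 against 0), and, in barcodes under 500 genes with at most 20% mitochondrial UMIs, those higher (3 against 6) and lower (3 against 0). The cause was not tested. The other 48 counts and medians stayed within 1.5 times or 1 interval, and of the values of single genes 53 moved past their interval and 196 did not. Few UMIs limit Pdpn, Igfbp2 and Rtkn2 in the smaller classes, and each gene in the 17 lymphoid-like cells labelled WT. In AT2 cells Rtkn2 had 245 UMIs labelled IPKO and 247 labelled WT, and Pdpn had 166 labelled IPKO and 65 labelled WT. Igfbp2 was limited there too, with 17 UMIs labelled WT.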
